A study of Mus musculus with 25 samples.

Results

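Oxidative phosphorylation subunits were followed in the colon of mice with chemically induced colitis. The members were all genes on the array whose name starts with Nduf (without the Ndufaf assembly factors), Uqcr or Atp5, whose name starts with Cox4 to Cox8, or which are Sdha, Sdhb, Sdhc, Sdhd or Cyc1. The rule uses names only and gave 87 genes, of which 85 passed the filter on dim probes (signal well above background on 3 or more of the 25 arrays) and were tested among 25448 genes in all. Of the 85, 38 carry complex I names, 4 belong to complex II, 9 to complex III, 16 to complex IV and 18 carry ATP synthase (complex V) names. Cox7b2 and Cox8c, known as testis isoforms of complex IV subunits, reached that signal on no array.

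Oxidative phosphorylation takes place in the inner mitochondrial membrane. Complexes I and II pass electrons from NADH and succinate to ubiquinone, complex III hands them to cytochrome c, and complex IV gives them to oxygen. Complexes I, III and IV pump protons, and ATP synthase uses the returning protons to make ATP. All but a few subunits are encoded in the nucleus. Colonocytes are known to burn butyrate in their mitochondria, which makes the colon epithelium a tissue with a high rate of oxygen use.

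The study set female C57Bl/6j mice that lack Card9 (Card9-/-) against wild type (WT) females of the same strain, aged 8 weeks. CARD9 is an adaptor that carries signals from fungal pattern receptors in myeloid cells. Dextran sulphate sodium (DSS), which damages the lining of the colon, was given in the drinking water at 2% w/v for 7 days to cause colitis, and mice then drank plain water for 5 days. Whole colon RNA of 1 mouse was hybridised to each single-colour array. The day 7 groups, killed at the end of DSS, held 4 Card9-/- and 5 WT arrays. The day 12 groups, killed after recovery, held 5 Card9-/- and 5 WT arrays. The day 0 groups, killed before DSS, held 3 Card9-/- and 3 WT arrays. The design names 5 Card9-/- mice at day 7, and 1 of them was not analysed here. No cell type was sorted and no transgene or Cre was used, so every value is an average over the epithelium, muscle, stroma and blood cells of the sample.

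Of the 87 members, 70 had a promoter window in the RefSeq table used here (GRCm38.p6), which runs from 250 bases before the gene start to 50 after it and lists 76 such windows for them. Nuclear respiratory factor 1 (NRF1) is known to bind promoters of many respiratory chain genes. Its consensus, GCGCA and GCGC with 1 base of any kind between them, searched like the others on both strands, was present in 23.7% of the members' windows, against 4.6% of the 32851 windows in the table. The ETS motif CCGGAAG, which GA-binding protein recognises, was present in 21.1% of the members' windows, against 8.86% of all windows. The YY1 motif AAGATGG stood in 17.1% against 6.34%, the estrogen-related receptor motif TCAAGGTCA in 2.63% against 0.423%, and the hypoxia response core ACGTG in 27.6% against 19.6%. None of these motifs contains another. A match describes the letters of a window and does not show binding.

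The windows below belong to members that were lower at day 7 of DSS on arrays labelled Card9-/- (values follow). They were chosen because they hold a match in a member of complexes I, II, III or V whose level changed. Capitals mark each NRF1 match. Sdha lies at chr13:74350191-74350490 (minus strand), Sdhd at chr9:50603800-50604099 (minus strand), Uqcrc1 at chr9:108936398-108936697 (plus strand), Atp5h at chr11:115419870-115420169 (minus strand) and Ndufa8 at chr2:36049289-36049588 (minus strand).
Sdha: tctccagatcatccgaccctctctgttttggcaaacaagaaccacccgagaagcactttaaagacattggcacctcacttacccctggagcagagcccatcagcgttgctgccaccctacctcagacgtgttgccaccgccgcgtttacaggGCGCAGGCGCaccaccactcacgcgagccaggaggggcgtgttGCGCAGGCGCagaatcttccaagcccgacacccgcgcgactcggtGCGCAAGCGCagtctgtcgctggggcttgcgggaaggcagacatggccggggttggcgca
Sdhd: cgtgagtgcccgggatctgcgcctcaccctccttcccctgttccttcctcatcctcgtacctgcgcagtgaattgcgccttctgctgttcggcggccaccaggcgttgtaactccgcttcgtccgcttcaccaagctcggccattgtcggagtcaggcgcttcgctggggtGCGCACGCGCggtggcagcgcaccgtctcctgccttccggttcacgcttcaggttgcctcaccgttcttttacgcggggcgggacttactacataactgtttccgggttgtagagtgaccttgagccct
Uqcrc1: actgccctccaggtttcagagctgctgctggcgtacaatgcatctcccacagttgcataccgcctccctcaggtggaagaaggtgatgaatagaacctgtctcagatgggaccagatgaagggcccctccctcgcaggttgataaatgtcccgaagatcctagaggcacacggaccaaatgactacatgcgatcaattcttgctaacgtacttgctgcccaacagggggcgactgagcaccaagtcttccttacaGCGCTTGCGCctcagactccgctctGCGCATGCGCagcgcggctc
Atp5h: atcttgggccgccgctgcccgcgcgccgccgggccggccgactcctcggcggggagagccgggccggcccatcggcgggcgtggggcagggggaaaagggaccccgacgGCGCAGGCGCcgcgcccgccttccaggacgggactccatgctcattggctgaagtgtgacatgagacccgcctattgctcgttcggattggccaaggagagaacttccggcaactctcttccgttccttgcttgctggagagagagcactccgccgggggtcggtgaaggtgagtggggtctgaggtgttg
Ndufa8: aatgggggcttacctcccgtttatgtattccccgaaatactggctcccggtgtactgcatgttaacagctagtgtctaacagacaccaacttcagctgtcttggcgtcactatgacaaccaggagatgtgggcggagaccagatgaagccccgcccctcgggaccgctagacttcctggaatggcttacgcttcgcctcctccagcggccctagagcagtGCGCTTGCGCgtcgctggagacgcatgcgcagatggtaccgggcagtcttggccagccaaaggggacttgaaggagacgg

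The window of Ndufs8 at chr19:3912725-3913024 (minus strand) held no NRF1 match and 1 CCGGAAG match on the opposite strand, shown in capitals. The window of Cox7a1 at chr7:30183921-30184220 (plus strand) is given because this member had the largest fall of all, and its capitals mark the ACGTG core read on the opposite strand.
Ndufs8: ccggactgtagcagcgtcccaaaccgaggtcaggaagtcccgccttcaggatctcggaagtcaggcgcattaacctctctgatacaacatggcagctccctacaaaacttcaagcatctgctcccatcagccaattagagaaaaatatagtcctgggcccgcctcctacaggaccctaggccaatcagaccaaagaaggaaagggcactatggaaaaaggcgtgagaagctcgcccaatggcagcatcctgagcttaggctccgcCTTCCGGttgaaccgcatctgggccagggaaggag
Cox7a1: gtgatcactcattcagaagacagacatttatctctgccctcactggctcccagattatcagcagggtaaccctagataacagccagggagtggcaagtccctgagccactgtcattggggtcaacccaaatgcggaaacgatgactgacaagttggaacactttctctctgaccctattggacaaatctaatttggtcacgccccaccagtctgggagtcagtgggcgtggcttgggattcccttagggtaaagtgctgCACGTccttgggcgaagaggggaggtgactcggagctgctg

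Of the 35 members that fell at day 7 on arrays labelled Card9-/-, 28 had a window, and 6 of these (21.4%) held the NRF1 motif. Of the 49 members not called there, 41 had a window, and 11 of these (26.8%) held it. The CCGGAAG motif was present for 7 of the 28 and 9 of the 41. The difference between these shares was not tested. Atp5a1, Atp5c1-ps, Cox4i1, Cox4i2, Cox6a2, Cox6c, Cox8c, Cyc1, Ndufa2, Ndufa4l2, Ndufb9, Ndufs1, Sdhc, Uqcrb, Uqcrc2 and Uqcrq were among those with no entry.

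Between 48.0% and 67.9% of the spots were well above background on each array. The Card9 probe went against the labels: its level lay between -1.52 and -0.48 on the 12 arrays labelled Card9-/-, against -6.84 to -2.93 on the 13 arrays labelled WT, and 2 WT arrays had it well above background. Levels are log2 signals on which 0 is the 75th percentile of the array. No source used here says whether this probe lies in the deleted part, and every direction below goes by the labels. All 12 colonocyte markers were well above background on every array. The mean of 10 pancreas acinar genes was 7.57 to 14.25 above the WT day 0 mean (log2) on 4 arrays (Card9-/- day 7 replicates 2 and 3, Card9-/- day 12 replicate 1 and WT day 12 replicate 5), against -0.75 to 2.27 on the other 21. The mean of 7 Hox genes of the proximal colon was 1.32 to 1.69 on Card9-/- day 0 replicates 1 and 2 and WT day 7 replicate 1, against -1.03 to 0.57 on the other 22. For several comparisons, counts of called members and of called genes in related lists are given with and without the 4 and the 3 arrays. For cell marker lists only medians are given without the 3 arrays, since that fit holds 1 Card9-/- array of day 0. The share of all genes called with arrays left out is not given here, so those counts cannot be set against it.

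The members were first summed up as 1 median per array. The median over the 85 members, taken relative to each member's WT day 0 mean (log2), was -0.25, -0.16, 0.02 and -0.36 on the 4 Card9-/- arrays of day 7 and 0.12, 0.20 and 0.22 on the 3 Card9-/- arrays of day 0. It was -0.03, 0.01, -0.44, -0.05 and 0.06 on the WT arrays of day 7, against 0.04, -0.03 and -0.01 on the WT arrays of day 0. The Card9-/- arrays of days 7 and 0 did not overlap, and the Card9-/- arrays of day 0 lay above all 3 WT arrays of the same day. At day 12 the medians were 0.21, -0.21, -0.14, -0.19 and -0.23 on Card9-/- arrays and 0.04, -0.14, -0.11, -0.10 and -0.03 on WT arrays. A single array stood apart in each of 2 groups: WT day 7 replicate 3 was lower than every other array of the series, and Card9-/- day 12 replicate 1 was near the Card9-/- level of day 0. The 75th percentile signal was 485, 289, 205 and 656 on Card9-/- and 389, 430, 658, 578 and 215 on WT arrays of day 7. On Card9-/- arrays of day 12 it was 196, 637, 506, 485 and 661. Within each of these groups and Card9-/- day 0, the brightest array had the lowest median and the dimmest the highest. On WT arrays of days 0 and 12 this held only in part. The part of array brightness in the medians was not tested. In whole tissue, fewer cells of a type and less RNA per cell cannot be told apart.

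**Figure D1:**
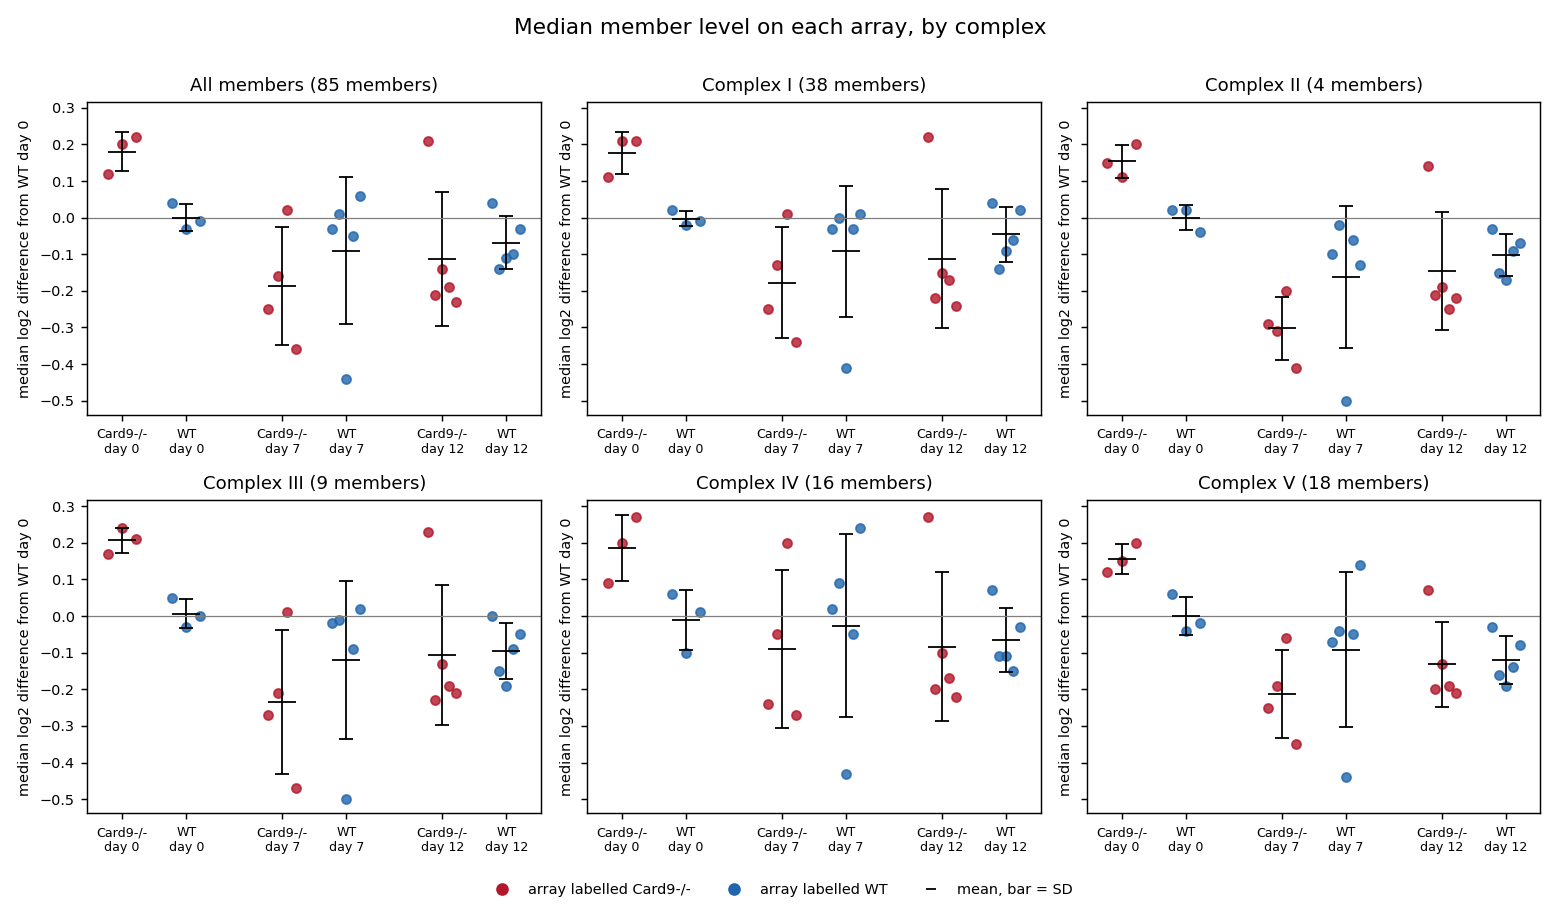
Median of the members' log2 differences from their WT day 0 means on each array (y axis), for all members and for each complex, by genotype and day (x axis). Points are arrays, horizontal lines are group means and bars are SDs. In the panel of all members the 4 Card9-/- arrays of day 7 lie at -0.36 to 0.02 and the 3 Card9-/- arrays of day 0 at 0.12 to 0.22.

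The array medians of complex II had a mean of -0.30 ± 0.0862 on Card9-/- arrays of day 7 and 0.15 ± 0.0451 on those of day 0 (SD, n = 4 and 3). The other complexes are given in the same way. Complex III stood at -0.23 ± 0.198 at day 7 and 0.21 ± 0.0351 at day 0 on Card9-/- arrays. Complex I stood at -0.18 ± 0.152 at day 7 and 0.18 ± 0.0577 at day 0, and complex V at -0.21 ± 0.121 at day 7 and 0.16 ± 0.0404 at day 0. Complex IV was the least uniform, with -0.09 ± 0.216 at day 7 and 0.19 ± 0.0907 at day 0, and its arrays of the 2 days overlapped. The order of the complexes was not tested.

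**Figure D2:**
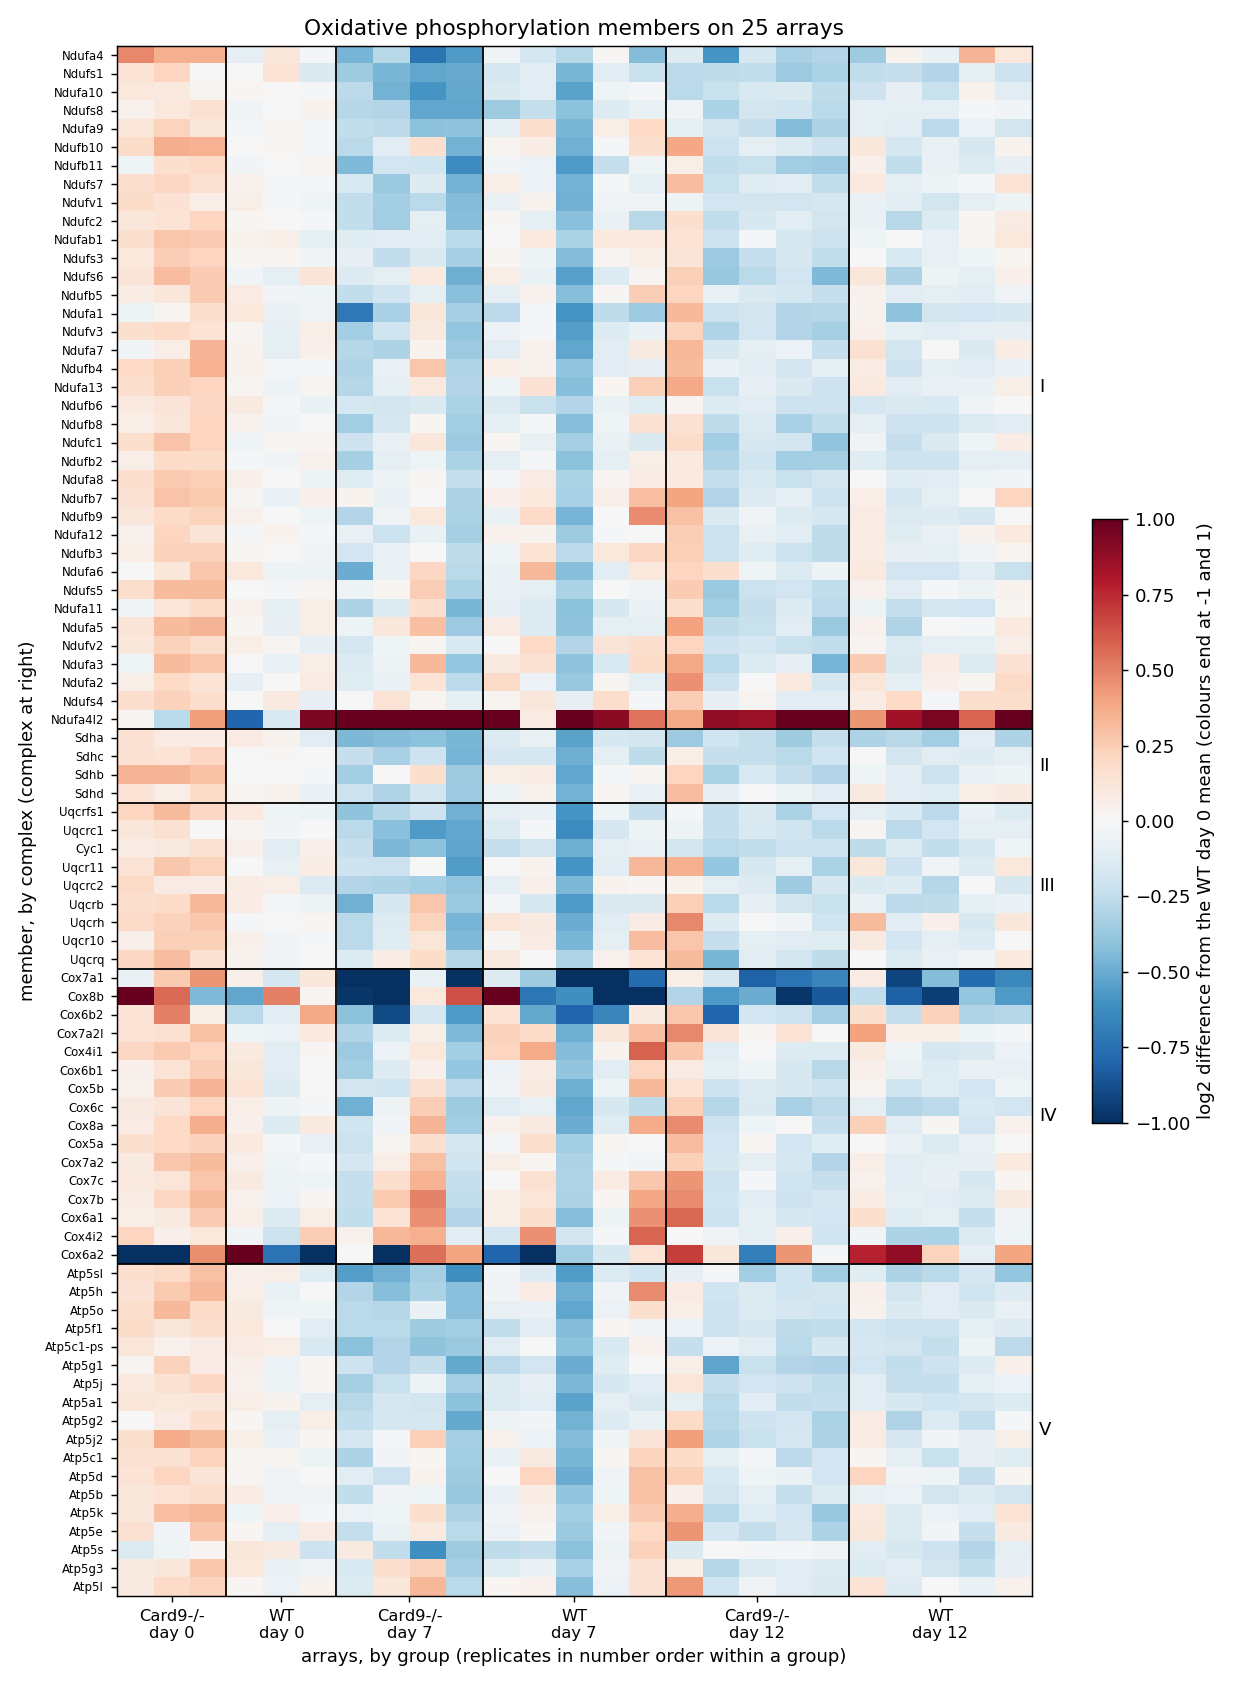
Log2 difference of the members from their WT day 0 means (colour) on the 25 arrays (columns, by group), with members (all but 1 of those tested) ordered by complex and by their day 7 difference on Card9-/- arrays. Blue is lower and red is higher. WT day 7 replicate 3 is blue in nearly every member, Card9-/- day 12 replicate 1 is mostly red, and Ndufa4l2 in complex I runs the other way.

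The first comparison asked how the members changed over 7 days of DSS in Card9-/- mice. On arrays labelled Card9-/-, 35 of the 85 members fell and 1 rose at day 7 relative to day 0 (limma, Benjamini-Hochberg adjusted over all genes, adjusted p under 0.05). Among all genes, 12.7% were called lower and 6.93% higher in this comparison (19.7% in either direction), against 42.4% of the members called. The falls were modest, between 1.25-fold and 2.49-fold, with a median log2 difference of -0.46 among the called. Over all 85 members the median was -0.36, against -0.081 over all genes, and 82 members were below 0, where 56.7% of all genes were. The groups did not overlap for 56 members, where 27.1% of all genes had groups that do not overlap. By name, the members that fell include all 4 subunits of complex II and 17 of the 38 complex I members. They also include 4 of 9 in complex III, 2 of 16 in complex IV and 8 of 18 in complex V.

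Complex I, the NADH dehydrogenase, held the smallest p. Ndufs1, its largest iron-sulfur subunit, stood at 4.88, 4.78, 4.71 and 4.73 on Card9-/- arrays of day 7 and at 5.37, 5.45 and 5.24 on those of day 0. All 4 arrays of day 7 were below all 3 of day 0, and Ndufs1 fell by 0.58 ± 0.094 on the log2 scale (SE, limma adjusted p = 0.000257), which is 1.49-fold lower. Ndufs8, an iron-sulfur subunit of the arm that reaches into the matrix, stood at 3.57, 3.56, 3.34 and 3.34 at day 7 and at 3.90, 3.96 and 4.01 at day 0. Its values did not overlap either, and it fell by 0.50 ± 0.093 (SE, limma adjusted p = 8e-04). Ndufa4 carries a complex I name and is now counted as a complex IV subunit. It stood at 4.26, 4.45, 4.00 and 4.16 at day 7 and at 5.21, 5.08 and 5.08 at day 0, and fell by 0.91 ± 0.15 (SE, limma adjusted p = 0.000273), 1.87-fold and the second largest fall among the members.

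Complex I has core subunits, conserved from bacteria, that carry its flavin and iron-sulfur clusters. Among those encoded in the nucleus, Ndufv1, which binds the flavin, fell by 0.46 (limma adjusted p = 0.00251), Ndufs7 by 0.46 (limma adjusted p = 0.0184) and Ndufs3 by 0.39 (limma adjusted p = 0.022), beside Ndufs1 and Ndufs8 above. Ndufv2 had a difference of -0.26 ± 0.12 (SE, limma adjusted p = 0.135). These members were named after their values were seen. The accessory subunits that fell were Ndufa8, Ndufa9, Ndufa10, Ndufab1, Ndufb2, Ndufb5, Ndufb6, Ndufb10, Ndufb11 and Ndufc2, beside Ndufa4 with its complex I name.

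Complex II, succinate dehydrogenase, is the only complex of the chain that also works in the TCA cycle. Sdha, its flavoprotein, stood at 4.94, 4.95, 4.98 and 4.93 on Card9-/- arrays of day 7 and at 5.53, 5.47 and 5.46 on those of day 0. Both groups were tight and apart, and Sdha fell by 0.54 ± 0.097 (SE, limma adjusted p = 0.000584). Sdhc, a membrane anchor, stood at 4.84, 4.74, 4.86 and 4.60 at day 7 and at 5.22, 5.20 and 5.27 at day 0, and fell by 0.47 ± 0.098 (SE, limma adjusted p = 0.00201). Sdhd, the other anchor, stood at 6.39, 6.30, 6.42 and 6.24 at day 7 and at 6.74, 6.67 and 6.79 at day 0, and fell by 0.40 ± 0.12 (SE, limma adjusted p = 0.0196). Within complex II, the windows of Sdha and Sdhd hold NRF1 matches, printed above. Sdhb, the iron-sulfur subunit, ranged from 6.57 to 7.08 at day 7 and from 7.22 to 7.26 at day 0, and fell by 0.46 ± 0.15 (limma adjusted p = 0.0334).

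Complex III, the cytochrome bc1 complex, fell in its catalytic and core subunits. Cyc1, which carries cytochrome c1, stood at 6.35, 6.13, 6.17 and 6.05 on Card9-/- arrays of day 7 and at 6.65, 6.67 and 6.73 on those of day 0. The groups did not overlap, and Cyc1 fell by 0.51 ± 0.096 (SE, limma adjusted p = 0.000874). Uqcrfs1, the Rieske iron-sulfur protein, stood at 5.68, 5.80, 5.88 and 5.60 at day 7 and at 6.30, 6.40 and 6.29 at day 0, and fell by 0.59 ± 0.11 (SE, limma adjusted p = 0.00108). Uqcrc1, a core protein, stood at 4.67, 4.52, 4.37 and 4.42 at day 7 and at 5.05, 5.09 and 4.94 at day 0, and fell by 0.53 ± 0.12 (SE, limma adjusted p = 0.00329). Its partner Uqcrc2 fell by 0.45 ± 0.11 (limma adjusted p = 0.00783). The 5 small subunits Uqcrb, Uqcrh, Uqcrq, Uqcr10 and Uqcr11 had differences of -0.26 to -0.45 and none passed the test.

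In complex IV, cytochrome c oxidase, 2 of the 16 members with Cox names fell, where 12.7% of all genes did, and both are tissue-restricted isoforms. Ndufa4, now counted in complex IV, fell as given above. Cox7a1, the isoform known from heart and skeletal muscle, stood at 3.78, 4.01, 5.26 and 3.84 on Card9-/- arrays of day 7 and at 5.26, 5.59 and 5.77 on those of day 0. Replicate 3 of day 7 was level with the lowest array of day 0 and the other 3 were far below, and Cox7a1 fell by 1.32 ± 0.34 (SE, limma adjusted p = 0.00927), 2.49-fold. Cox6b2, known as a testis isoform, stood at -1.03, -1.51, -0.79 and -1.18 at day 7 and at -0.48, -0.11 and -0.56 at day 0, and fell by 0.74 ± 0.26 (SE, limma adjusted p = 0.0459). Its call was kept in 5 of 20 alternative settings and lost in 15, with differences of -0.91 to -0.56 and limma adjusted p from 0.00733 to 0.465. The 10 broadly used subunits (Cox4i1, Cox5a, Cox5b, Cox6a1, Cox6b1, Cox6c, Cox7a2, Cox7b, Cox7c and Cox8a) lay between -0.39 and -0.12, with limma adjusted p from 0.0667 to 0.767. They were thus all below 0 with no call.

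Beside Cox7a1, the 8 smooth muscle markers had means of -1.15, -1.38, -0.44 and -0.10 on the Card9-/- arrays of day 7 and 0.63, 0.45 and -0.10 on those of day 0, relative to WT day 0. Of the 8, 2 fell (Actg2 by 1.96 and Des by 1.44), where 12.7% of all genes were called lower, and the median of the 8 was -1.05. Without the 4 acinar arrays none fell and the median was -0.9. Without the 3 Hox arrays the median was -0.54. On each array 7 or 8 of these smooth muscle markers were well above background. Of 8 skeletal muscle markers tested 1 rose and 1 fell, where 6.93% of all genes were called higher and 12.7% lower, with a median of -0.01. Of 6 brown and white fat markers tested none was called, with a median of -0.29. The part of these 3 lists in the result was not tested.

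In complex V, ATP synthase, Atp5f1 (the b subunit of the peripheral stalk) stood at 5.19, 5.19, 5.10 and 5.11 on Card9-/- arrays of day 7 and at 5.64, 5.57 and 5.62 on those of day 0. It fell by 0.46 ± 0.095 (SE, limma adjusted p = 0.00173) with no overlap. Atp5c1-ps stood at 4.07, 4.19, 4.08 and 4.11 at day 7 and at 4.60, 4.52 and 4.56 at day 0, and fell by 0.45 ± 0.098 (limma adjusted p = 0.00289). This name stands for a pseudogene of the gamma subunit, and RNA of the near-identical parent gene Atp5c1 (-0.34, limma adjusted p = 0.0835) may contribute to its probe, so its identity is uncertain. Atp5a1 of the catalytic head, Atp5g1 of the proton ring, Atp5o (the oligomycin sensitivity conferring protein), Atp5h and Atp5j of the stalk also fell, by 0.37 to 0.61. Atp5b, the catalytic beta subunit, had a difference of -0.31 (limma adjusted p = 0.0773). Atp5sl, whose name fits the rule, is an assembly protein of complex I and no ATP synthase subunit. It stood at 3.24, 3.31, 3.46 and 3.18 at day 7 and at 3.96, 3.98 and 4.08 at day 0, and fell by 0.71 ± 0.12 (SE, limma adjusted p = 0.000292). Atp5s, a coupling factor known as factor B, had a difference of -0.23 (limma adjusted p = 0.315), and Cox7a2l, a factor in respiratory supercomplexes, had -0.40 (limma adjusted p = 0.101).

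**Figure D3:**
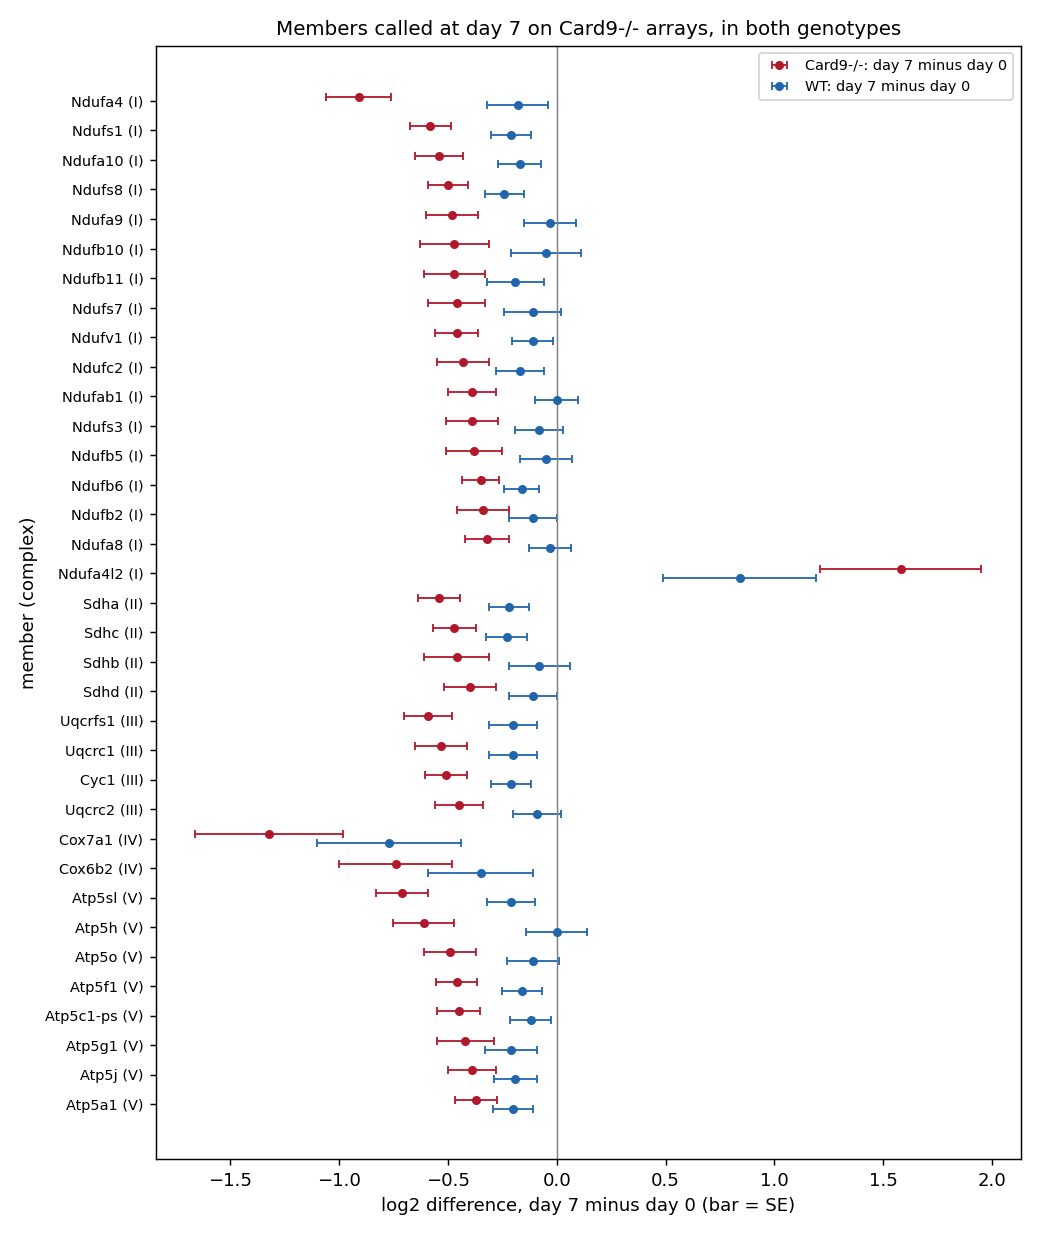
Log2 difference between day 7 and day 0 (x axis, bar = SE) for members called on arrays labelled Card9-/- (all but 1 of the 36), with the Card9-/- value above and the WT value below for each member. Ndufa4l2 is the member to the right of 0, and Cox7a1 has the lowest values in both genotypes.

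The member that rose was Ndufa4l2, a paralog of Ndufa4 that is known to be induced by hypoxia-inducible factor. It stood at -2.07, -1.26, -2.26 and -1.39 on Card9-/- arrays of day 7 and at -3.37, -3.66 and -2.97 on those of day 0. All 4 arrays of day 7 were higher than all 3 of day 0, and Ndufa4l2 rose by 1.58 ± 0.37 (SE, limma adjusted p = 0.00437), 3-fold. The longest run of bases that the probes of Ndufa4 and Ndufa4l2 share is 7. In the array annotation (mm9) the Ndufa4 probe lies at chr6:11850423-11850482 and the Ndufa4l2 probe at chr10:126954149-126954208. Ndufa4 and Ndufa4l2 thus changed in opposite directions on the same arrays.

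The count of called members differed between settings. With each array scaled to its median in place of its 75th percentile, which moved the median of all genes to -0.254, the members' median was -0.53 and 1 member (Cox7a1) was called, and without the 3 arrays with high proximal Hox genes, 4 members fell (Ndufa4, Ndufs8, Cyc1 and Atp5sl) with a median of -0.41. That fit holds 1 Card9-/- array of day 0, whose spread is assumed to be that of the other groups. Leaving out Card9-/- day 0 replicate 1, 2 or 3 alone gave 27, 24 and 27 called members. Without the 4 arrays with high acinar genes 56 fell and 1 rose, with a median of -0.48, against -0.15 over all genes. With only the 2 groups in the fit 8 fell and 1 rose, with a median of -0.36. Within the 2 slides that held both groups the medians were -0.43 and -0.49. Of 15 members named by rule in this comparison, 14 kept their call without the acinar arrays (Cox6b2 did not) and 4 without the Hox arrays.

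Markers of immune and stromal cells moved in the same arrays. The 8 macrophage markers all rose at day 7 on Card9-/- arrays, with means of 1.77 to 2.00 at day 7 and -1.04 to -0.27 at day 0, and all 8 were well above background on every array. Of the 8 neutrophil markers 6 rose, with means of 4.97 to 5.71 at day 7 and -0.85 to 0.56 at day 0, and 7 to 8 of them were well above background at day 7, against 2 to 3 at day 0. The 7 fibroblast markers rose as well, with means of 1.22 to 2.26 at day 7 and -0.66 to -0.08 at day 0. Of 5 red blood cell genes 4 were tested and all 4 rose, with a median of 4.23 and array means of 2.41 to 5.50 at day 7 and -1.24 to -0.01 at day 0. Of 5 B and plasma cell genes tested 3 rose, with a median of 3.07 and array means of 0.60 to 1.15 at day 7 and -2.72 to 0.70 at day 0. Of the 12 colonocyte markers 2 fell (Cdx2 by 1.26 and Car1 by 1.65), where 12.7% of all genes were called lower. The median of the 12 was -0.20, the highest difference was 0.52 (Car4, limma adjusted p = 0.43), and their means were -0.49 to 0.10 at day 7 and 0.09 to 0.28 at day 0. Of 5 T cell genes tested none was called, with a median of 0.54. Without the 4 acinar arrays 8 macrophage, 6 neutrophil, 7 fibroblast and 4 red blood cell genes rose. Among T cell genes 1 rose, no B and plasma cell gene did, and no colonocyte marker fell. Without the 3 Hox arrays, list medians were 2.35 (macrophage), 2.83 (neutrophil), 2.33 (fibroblast), 4.39 (red blood cell), 0.2 (T cell), 0.35 (B and plasma cell) and -0.2 (colonocyte). That fit holds 1 Card9-/- array of day 0, so these medians do not show that the calls above were kept. The part of cell composition in the members' falls was not tested.

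The same comparison in WT mice called none of the 85 members (limma), where 4.35% of all genes were called. At an unadjusted p under 0.05 there were 8 members, Ndufs8, Sdhc, Ndufa4l2, Ndufs1, Cox7a1, Sdha, Cyc1 and Atp5a1. The share of all genes at an unadjusted p was not counted in this or any later comparison. The median of the members was -0.08, against 0.026 for all genes. Ndufs8 stood at 3.50, 3.62, 3.45, 3.73 and 3.78 on WT arrays of day 7 and at 3.82, 3.86 and 3.89 on those of day 0, a difference of -0.24 ± 0.089 (SE, limma adjusted p = 0.149). Sdhc stood at 4.90, 4.90, 4.58, 4.98 and 4.81 at day 7 and at 5.06, 5.08 and 5.06 at day 0, a difference of -0.23 ± 0.094 (SE, limma adjusted p = 0.185). For both, every day 7 array lay below every day 0 array. The lowest day 7 array was replicate 3 in both, and without it the members' median was 0.00. No member was called without the 4 acinar arrays (median -0.08) or without the 3 Hox arrays (median -0.11).

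The 8 members with an unadjusted p under 0.05 on WT arrays were all among the 36 called on Card9-/- arrays, which is 8 of 8 of the one list and 8 of 36 of the other. These 2 comparisons share no array, but their p values come from a single fit with 1 estimate of each gene's spread. The 2 lists are therefore not independent. Over the 85 members the 2 sets of differences had a Pearson correlation of 0.53, as a description over genes that are not independent. It was 0.25 without Ndufa4l2. Over the 79 members left without Ndufa4l2, Cox7a1, Cox6a2, Cox6b2, Cox8b and Cox4i2 it was 0.5. For 68 members both differences were below 0. Among all genes 56.7% were below 0 on Card9-/- arrays and 46.9% on WT arrays. For 82 members the Card9-/- difference was the lower one, as it was for 61.3% of all genes. The shares of all genes for the overlap of 8 and for both differences below 0 were not counted.

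The test of that difference between genotypes took the change on Card9-/- arrays minus the change on WT arrays. It called no member (limma), where 0.00393% of all genes were called. At an unadjusted p, 18 members were under 0.05. The median of this difference over the members was -0.29, against -0.115 over all genes. The smallest p values were those of Ndufa4 (-0.72 ± 0.21, SE, limma adjusted p = 0.244) and Atp5h (-0.61 ± 0.20, SE, limma adjusted p = 0.262). Atp5h, a stalk subunit, stood at 7.45, 7.32, 7.43 and 7.33 on Card9-/- arrays of day 7 and at 7.89, 8.01 and 8.07 on those of day 0, and at 7.72, 7.83, 7.26, 7.71 and 8.22 on WT arrays of day 7 and at 7.81, 7.68 and 7.75 on those of day 0. On WT arrays of day 7, replicate 3 was the lowest and replicate 5 the highest. Without WT day 7 replicate 3 this test called 7 members, and the median over all genes was -0.155.

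At day 7 itself, Card9-/- arrays against WT arrays, no member was called (limma), where 0.55% of all genes were. At an unadjusted p, 14 members were under 0.05. The members' median was -0.12, against -0.064 for all genes. Ndufa10, an accessory subunit of complex I, stood at 3.68, 3.47, 3.35 and 3.43 on Card9-/- arrays and at 3.80, 3.83, 3.41, 3.90 and 3.93 on WT arrays, a difference of -0.29 ± 0.095 (SE, limma adjusted p = 0.128). Ndufs1 stood at 4.71 to 4.88 on Card9-/- arrays and at 5.06, 5.13, 4.78, 5.13 and 5.01 on WT arrays (-0.25 ± 0.082, SE, limma adjusted p = 0.139). In both genes the Card9-/- arrays lay below all WT arrays but replicate 3. Without that replicate 14 members were called and the median was -0.21, against -0.108 over all genes. Without the 4 acinar arrays none was called and the median was -0.20, and without the 3 Hox arrays none was called and it was -0.10. Within the 4 slides the medians were 0.06, -0.20, -0.10 and -0.32. The same WT array had a macrophage marker mean of 2.16, against 0.37 to 1.18 on the other WT arrays of day 7, a neutrophil mean of 5.09 against 2.17 to 4.44, and a colonocyte mean of -0.43 against -0.24 to 0.18. Their part in its low member levels was not tested.

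Before DSS, Card9-/- arrays against WT arrays, no member was called (limma), where 0.00393% of all genes were. At an unadjusted p, 3 members were under 0.05. Even so, 83 of 85 members were above 0, where 57.8% of all genes were, with a median of 0.17 against 0.043 for all genes. The groups did not overlap for 56 members, and 16.3% of all genes had groups that do not overlap. Ndufa4 stood at 5.21, 5.08 and 5.08 on Card9-/- arrays and at 4.63, 4.84 and 4.71 on WT arrays, a difference of 0.40 ± 0.16 (SE, limma adjusted p = 0.886). Ndufab1, the mitochondrial acyl carrier protein, stood at 6.45, 6.57 and 6.55 on Card9-/- arrays and at 6.33, 6.35 and 6.20 on WT arrays (0.24 ± 0.11, SE, limma adjusted p = 0.991). The day 7 falls on Card9-/- arrays and this difference share the 3 Card9-/- arrays of day 0. The high proximal Hox means of Card9-/- replicates 1 and 2 stand in this group, and replicate 3, with a Hox mean of -0.04, had the highest member median, 0.22. Replicate 3 also had a 75th percentile signal of 369, against 526 and 439 on replicates 1 and 2. The part of colon position and of array brightness in this difference was not tested. Without the 3 Hox arrays, which leaves replicate 3 alone, no member was called and the median was 0.22. On the 1 slide that held both groups the members' median was 0.08.

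After recovery, day 12 against day 0 on Card9-/- arrays, 13 members fell and none rose (limma), or 13 of 85, where 3.26% of all genes were called lower and 6.97% in either direction. The median of the members was -0.29, against -0.029 for all genes, and 82 members were below 0, where 54% of all genes were. By name, complex I held 6 of the falls, complex II 3, complex III 2, complex V 2 and complex IV none. The 6 include Ndufa4, now counted in complex IV, and the 2 of complex V include Atp5sl, which is no subunit. Day 7 and day 12 share the day 0 arrays, so the values are given side by side. Ndufa4 stood at 4.60, 4.14, 4.56, 4.40 and 4.43 at day 12 and fell by 0.70 ± 0.14 (SE, limma adjusted p = 0.00549), beside 0.91 at day 7. Ndufs1 stood at 4.97, 4.98, 4.99, 4.87 and 4.92 at day 12 and fell by 0.41 ± 0.09 (SE, limma adjusted p = 0.00919), beside 0.58 at day 7. Ndufa8, an accessory subunit of complex I, stood at 4.54, 4.20, 4.29, 4.22 and 4.26 at day 12, against 4.61, 4.70 and 4.68 at day 0, and fell by 0.36 ± 0.095 (SE, limma adjusted p = 0.0251). For all 3 the day 12 arrays lay below the day 0 arrays.

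In complex II, Sdha stood at 5.02, 5.19, 5.15, 5.03 and 5.15 at day 12 and fell by 0.38 ± 0.092 (SE, limma adjusted p = 0.016). Sdhc stood at 5.13, 4.84, 4.83, 4.80 and 4.87 at day 12 and fell by 0.33 ± 0.094 (limma adjusted p = 0.0361). Sdhb stood at 7.14, 6.61, 6.77, 6.69 and 6.63 at day 12, against 7.26, 7.26 and 7.22 at day 0, and fell by 0.48 ± 0.14 (limma adjusted p = 0.0442). In the last 2, replicate 1 was the highest day 12 array. In complex III, Uqcrfs1 stood at 6.06, 5.85, 5.94, 5.77 and 5.89 at day 12 and fell by 0.43 ± 0.11 (limma adjusted p = 0.021), and Cyc1 stood at 6.39, 6.31, 6.33, 6.36 and 6.37 and fell by 0.33 ± 0.092 (limma adjusted p = 0.0324). In complex V, Atp5f1 stood at 5.40, 5.25, 5.30, 5.20 and 5.21 and fell by 0.34 ± 0.091 (limma adjusted p = 0.028). The non-subunit Atp5sl stood at 3.71, 3.77, 3.45, 3.59 and 3.45 and fell by 0.41 ± 0.11 (limma adjusted p = 0.0291).

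The count of 13 rested on single arrays. Without Card9-/- day 12 replicate 1, which had the high acinar genes, 33 members were called, and without Card9-/- day 0 replicate 1 or 2 it was 1 each, without day 0 replicate 3 it was 4, and without any other day 12 array 4 to 6. With array median scaling, and without the 3 arrays with high Hox genes, no member was called, with medians of -0.29 and -0.34, beside -0.29 in the fit of all arrays. Without all 4 acinar arrays 36 were called. The median over all genes was -0.059 there, and also without Card9-/- day 12 replicate 1 alone. With 1 array left out the median lay between -0.36 and -0.27. Of 21 alternative settings, Sdhc, Sdhb and Cyc1 each lost their call in 14, Atp5sl in 12 and Ndufa8 in 11. The other members named by rule lost theirs in 3 (Ndufa4) to 9 (Atp5f1). Of 10 members named by rule here, all 10 kept their call without the acinar arrays and none did without the Hox arrays.

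On WT arrays, day 12 against day 0, no member was called (limma), where 1.73% of all genes were. At an unadjusted p, 4 members were under 0.05. Sdha stood at 5.08, 5.11, 5.04, 5.27 and 5.08 at day 12 and at 5.47, 5.42 and 5.27 at day 0 (-0.27 ± 0.092, SE, limma adjusted p = 0.165). Ndufs1 stood at 4.99, 5.00, 4.94, 5.14 and 5.03 at day 12 and at 5.24, 5.37 and 5.09 at day 0 (-0.21 ± 0.09, SE, limma adjusted p = 0.295). The highest day 12 array, replicate 4, was level with the lowest day 0 array for Sdha and within the day 0 range for Ndufs1.

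From day 7 to day 12, on Card9-/- arrays, no member was called (limma), where 7.71% of all genes were. At an unadjusted p, 9 members were under 0.05. The members' median was 0.09, against 0.022 for all genes, and 62 members were above 0, where 52.5% of all genes were. Atp5sl came nearest, with a difference of 0.30 ± 0.10 (SE, limma adjusted p = 0.0816). Sdhd stood at 6.91, 6.52, 6.61, 6.55 and 6.50 at day 12 and at 6.39, 6.30, 6.42 and 6.24 at day 7, a difference of 0.28 with limma adjusted p = 0.104. All day 12 arrays of Sdhd lay above those of day 7. On WT arrays no member was called either (limma), where 0.487% of all genes were, and 2 members had an unadjusted p under 0.05. Ndufs8 had a difference of 0.18 ± 0.077 (SE, limma adjusted p = 0.331) and Cox4i2 of -0.30 ± 0.14 (SE, limma adjusted p = 0.373). The difference between the genotypes in this recovery called no member (limma), where 0.00786% of all genes were called. At an unadjusted p, 2 members were under 0.05. Those 2 were Atp5sl and Atp5c1-ps.

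At day 12, Card9-/- arrays against WT arrays, no member was called (limma), where 0.0707% of all genes were. At an unadjusted p, 1 member was under 0.05. The members' median was -0.04. That member was Ndufa4, with 4.14 to 4.60 on Card9-/- arrays and 4.37, 4.76, 4.66, 5.07 and 4.83 on WT arrays, a difference of -0.31 ± 0.12 (SE, limma adjusted p = 0.429). Ndufs8 came next with -0.14 ± 0.077 (SE, limma adjusted p = 0.672).

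The members with tissue-restricted or inducible paralogs were read in every group. Ndufa4l2 had mean levels of -3.33 ± 0.346, -1.74 ± 0.493 and -2.42 ± 0.426 on Card9-/- arrays of days 0, 7 and 12, and of -3.39 ± 0.874, -2.55 ± 0.546 and -2.61 ± 0.266 on WT arrays of the same days (SD, n = 3, 4 and 5, then 3, 5 and 5). It was well above background on all arrays but 1 WT array of day 0. On WT arrays its day 7 difference of 0.84 ± 0.35 (SE, limma adjusted p = 0.211) and its day 12 difference of 0.78 ± 0.35 (SE, limma adjusted p = 0.332) did not pass the test, nor did the day 12 difference of 0.91 ± 0.35 on Card9-/- arrays (limma adjusted p = 0.138). Cox7a1 stood at 5.20, 4.97, 3.82, 4.25 and 4.56 on WT arrays of day 7 and at 5.38, 5.16 and 5.44 on those of day 0 (-0.77 ± 0.33, SE, limma adjusted p = 0.217). Its broadly used counterpart Cox7a2 stood at 6.33, 6.57, 6.79 and 6.30 on Card9-/- arrays of day 7 and at 6.59, 6.77 and 6.82 on those of day 0, and the 2 groups overlapped (-0.23, limma adjusted p = 0.253).

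**Figure D4:**
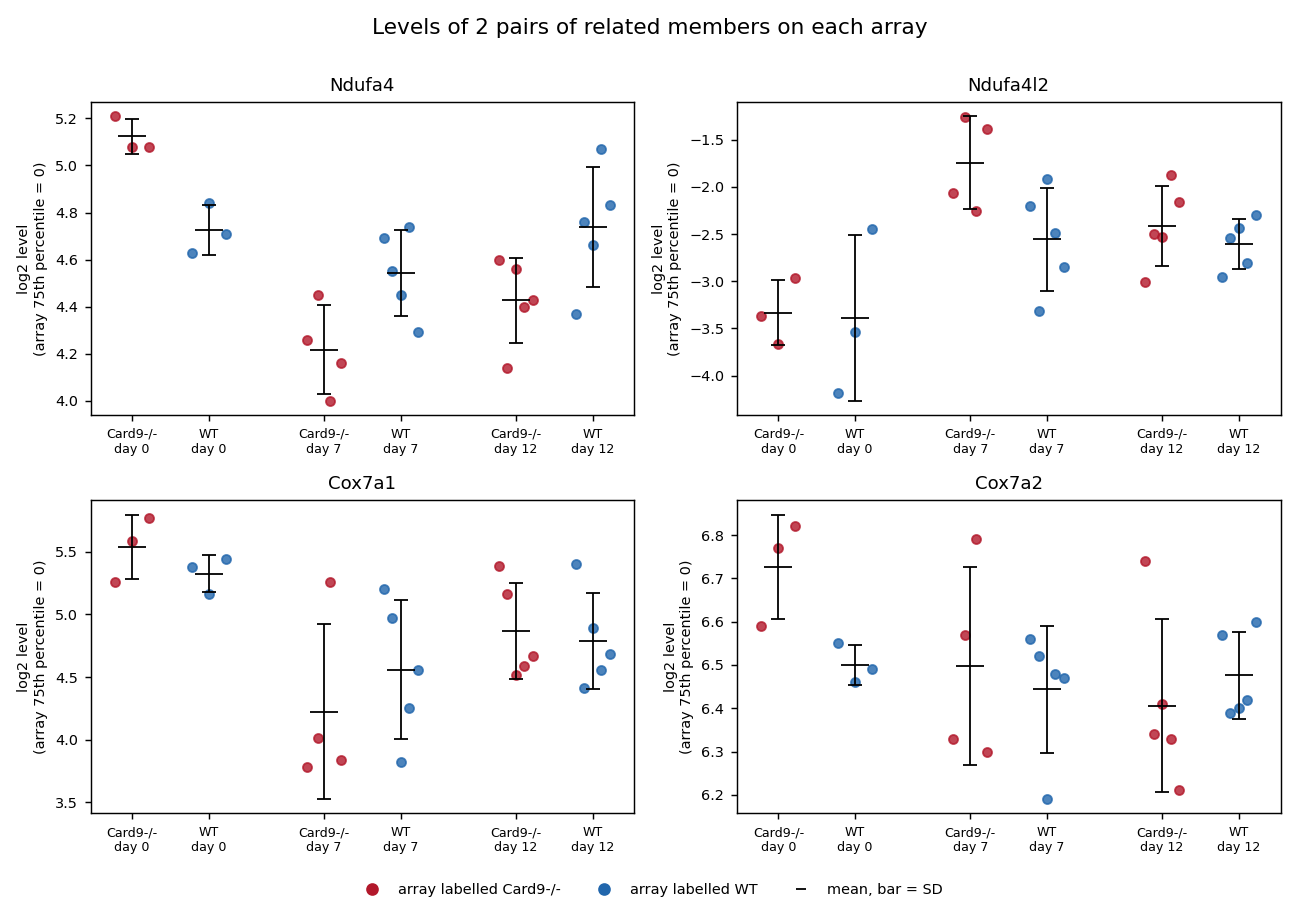
Log2 level (y axis, 0 is the 75th percentile of the array) of Ndufa4 and its inducible paralog Ndufa4l2, and of the muscle isoform Cox7a1 and its counterpart Cox7a2, on each array by group. Red points are Card9-/- arrays, blue points are WT arrays, lines are group means and bars are SDs. Each panel has its own scale, and levels of different genes come from different probes and are not comparable.

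Cox4i2, the isoform known from lung and low oxygen, stayed within -1.82 to -0.92 on all 25 arrays. Its day 7 difference was 0.03 ± 0.17 on Card9-/- arrays (SE, limma adjusted p = 0.945), and its counterpart Cox4i1 had -0.39 ± 0.17 (SE, limma adjusted p = 0.126). Cox8b, a muscle isoform, had group means from -2.11 to -0.90 and was spread widely, from -2.55 to -0.63 on Card9-/- arrays of day 7 and from -3.69 to 0.01 on WT arrays of the same day, and no contrast called it. Cox6a2, another muscle isoform, had group means from -5.04 to -3.63, was well above background on 15 of the 25 arrays, and no contrast called it. Cox6b2 had group means from -1.13 to -0.38, and Cox7a1 from 4.22 to 5.54. The group means of the counterparts ran from 7.76 to 8.15 for Cox4i1, from 9.45 to 9.65 for Cox6a1, from 4.36 to 4.70 for Cox6b1, from 6.40 to 6.73 for Cox7a2, from 7.09 to 7.32 for Cox7b and from 8.59 to 8.86 for Cox8a. The counterparts Cox6a1, Cox6b1, Cox7b and Cox8a had day 7 differences of -0.12, -0.34, -0.13 and -0.27 on Card9-/- arrays, and none was called in any of the 11 contrasts. Cox7b2 and Cox8c had group means between -6.67 and -5.90 and were not tested.

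Genes around the respiratory chain were counted from lists put together with results of these data known. Of all genes, 12.7% were called lower and 6.93% higher at day 7 on Card9-/- arrays, 4.35% either way at day 7 on WT arrays, and 3.26% lower at day 12 on Card9-/- arrays. Of 21 genes of the TCA cycle and pyruvate dehydrogenase, 16 fell at day 7 on Card9-/- arrays, with a median of -0.55 over the list. Pdhb, a subunit of pyruvate dehydrogenase, fell by 0.67 ± 0.09 (limma adjusted p = 4.79e-05), Dld, the E3 subunit shared by the dehydrogenase complexes, by 0.71 ± 0.11 (limma adjusted p = 0.000126), and Idh3b, of isocitrate dehydrogenase, by 0.63 ± 0.10 (limma adjusted p = 0.000269). On WT arrays 3 of the 21 fell at day 7, Idh3a by 0.57, Dld by 0.40 and Idh3b by 0.38. At day 12 on Card9-/- arrays 8 of the 21 fell relative to day 0. Without the 4 acinar arrays these counts of 16, 3 and 8 were 15, 3 and 7, and without the 3 Hox arrays they were 7, 5 and 0.

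Of 34 assembly factors of complexes I to V, 16 fell at day 7 on Card9-/- arrays, with the smallest p for Surf1 (a complex IV assembly factor, by 0.93 ± 0.14, limma adjusted p = 0.000133), Sco1 (which brings copper to complex IV, by 0.58 ± 0.12) and Ndufaf2 (by 0.42 ± 0.097). Of 16 regulators of mitochondrial biogenesis, 9 fell and none rose. Ppara, a fatty acid receptor, fell by 2.28 ± 0.40 (limma adjusted p = 0.000501), Sirt3, a mitochondrial deacetylase, by 0.79 ± 0.14, and Tfam, which packs and transcribes mitochondrial DNA, by 0.65 ± 0.14 (limma adjusted p = 0.00188). Of 20 genes of mitochondrial mass and import, 3 fell (Immt, Vdac3 and Phb2), a share near that of all genes, with a median of -0.22. Without the acinar arrays 5 assembly factors, 4 biogenesis regulators and 3 genes of mass and import fell, and without the Hox arrays 1, 1 and 0 did. On WT arrays none of the genes of these 3 lists was called at day 7 (limma), with 5, 3 and 1 at an unadjusted p under 0.05 among assembly factors, biogenesis regulators and the genes of mass and import. Without the Hox arrays 2 biogenesis regulators were called lower there.

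Glycolysis genes split. Of 19, 5 rose and 2 fell at day 7 on Card9-/- arrays, with a median of 0.06. Slc16a3, a lactate exporter, rose by 2.02 ± 0.32 (limma adjusted p = 0.000183), Pfkfb3, which makes the activator of phosphofructokinase, by 2.35 ± 0.43, and Hk3, a hexokinase known from myeloid cells, by 3.90 ± 0.75 (limma adjusted p = 0.00102). Hk2 and Pgk1 rose as well, while Pfkm and Gpi1 fell. Of 15 hypoxia targets 5 rose and 1 fell, with a median of 0.14. Egln3, a HIF prolyl hydroxylase, rose by 1.87 ± 0.22 (limma adjusted p = 1.24e-05) and Bnip3, a mitophagy receptor, by 1.34 ± 0.21 (limma adjusted p = 0.000171), whereas Kdm3a, a histone demethylase, fell by 0.45 ± 0.12 (limma adjusted p = 0.0118). Without the acinar arrays 3 glycolysis genes and 2 hypoxia targets rose and 1 hypoxia target fell, and without the Hox arrays 2 of each list rose and none fell. Myeloid markers rose on the same arrays, as given above, and their part in these rises was not tested.

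**Figure D5:**
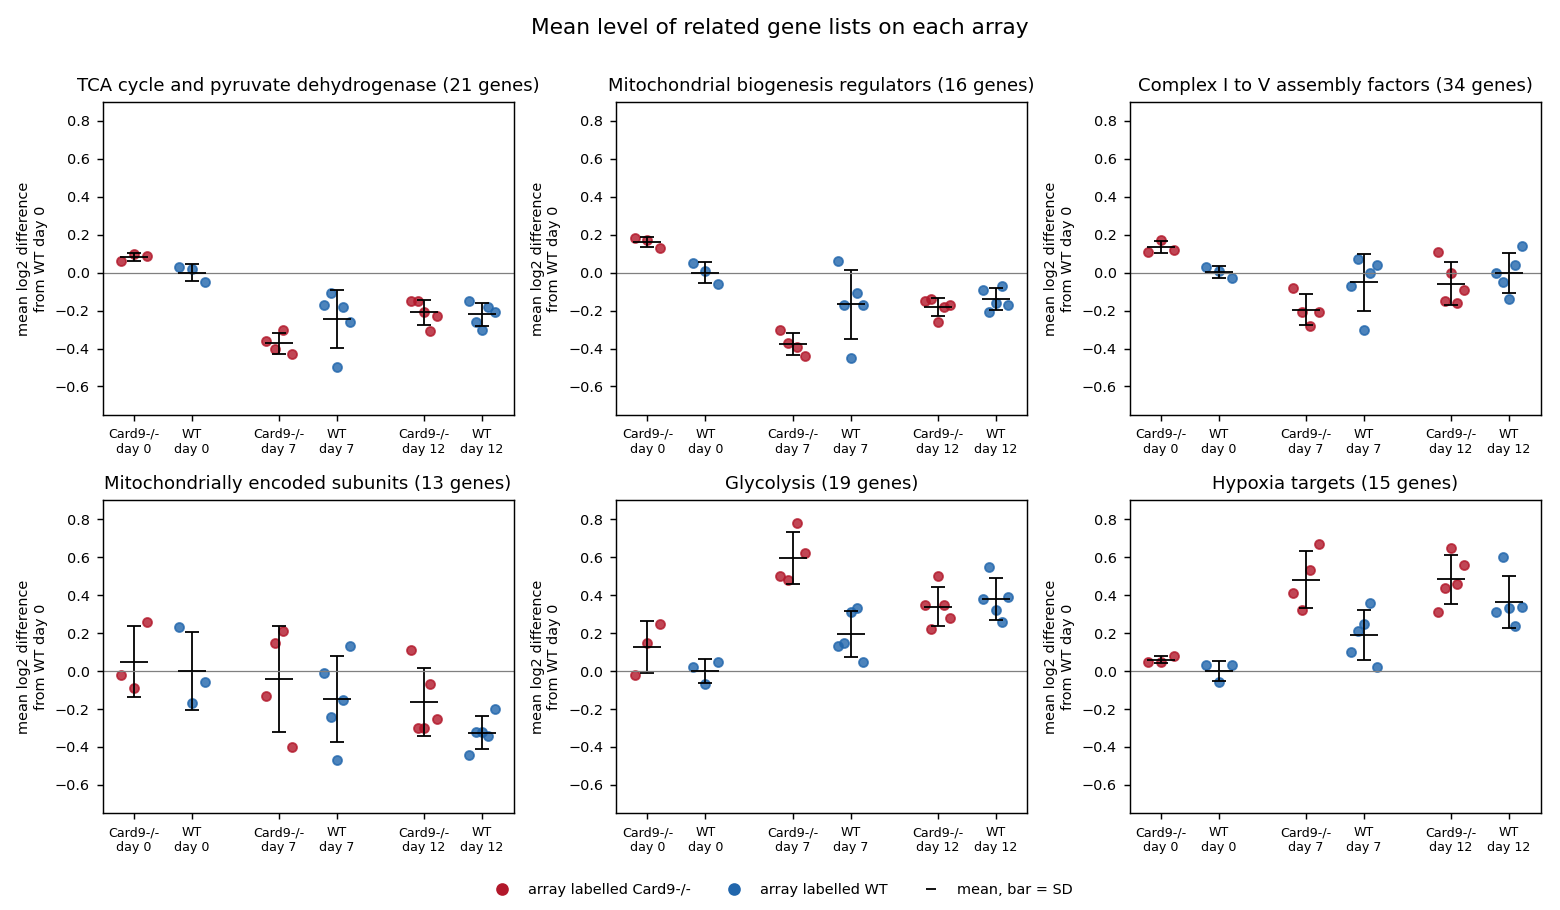
Mean log2 difference from WT day 0 over the genes of 6 related lists (y axis) on each array, by genotype and day. Points are arrays, lines are group means and bars are SDs. In the TCA panel the 4 Card9-/- arrays of day 7 lie at -0.43 to -0.30 and the 3 of day 0 at 0.06 to 0.10, and in the glycolysis panel the same arrays lie at 0.48 to 0.78 and at -0.02 to 0.25.

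Subunits encoded in mitochondrial DNA were measured by 13 genes. At day 7 on Card9-/- arrays 3 of the 13 fell (ND1 by 0.61, ATP6 by 0.46 and ATP8 by 0.43), beside 12.7% of all genes called lower, with a median of -0.25. The differences ran from -0.61 to 1.39, the highest being COX1 (1.39 ± 0.85, SE, limma adjusted p = 0.30) and ND6 (0.45, limma adjusted p = 0.531). None of the 13 was called without the acinar arrays or without the Hox arrays. Their mean level relative to WT day 0 was -0.13, 0.15, 0.21 and -0.40 on Card9-/- arrays of day 7 and -0.02, -0.09 and 0.26 on those of day 0, and the groups overlapped. The array annotation places several of these probes in the nuclear genome, so a nuclear copy of mitochondrial DNA and the mitochondrial transcript cannot be told apart. The difference between nuclear and mitochondrial members was not tested.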

How the data were processed

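RNA of 25 colon samples was measured on single-colour Agilent arrays. The deposited intensity values were made by the authors with Agilent Feature Extraction 10.7.3.1, per the file headers, which subtract background; probe positions use mm9. The authors' deposited series table holds values on a log2 scale by what they show, with a normalization that no source used here states. Its columns all had a median of 7.91, and each followed its array's log2 signals (r from 0.983 to 0.992, slope 0.78 to 0.89), so values were not centred by gene and run in the same direction. It was an alternative only. Log2 of the processed intensity minus the array's 75th percentile was used. Control and outlier-flagged spots were left out, and spots of a probe averaged. A probe was kept if well above background on 3 or more arrays, and a gene was represented by its probe with the highest mean. The 6 groups were fitted in a single limma model (limma 3.58.1, R 4.3.3, data.table version 1.17.8), and a gene was called at a Benjamini-Hochberg adjusted p under 0.05 over all genes. Scripts were tested on simulated data. Figures were drawn with matplotlib 3.10.9 in Python 3.11.15.

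Of the probes, 27656 were named by accession, 3722 by symbol or synonym and 24303 kept the file's name. Replicates are separate mice, per the labels. The number of arrays limits the precision. Members, gene lists, tests and the naming rule were chosen with earlier results of these data known. The list of mitochondrially encoded genes was added after the array's gene names were read. The values of 1 member are not reported here. Named are up to 3 called members of each complex with the smallest p, called members opposite in sign to the median, the 2 smallest p where none was called, the paralogs and their counterparts, and non-subunits that match the name rule; Atp5h at day 7, Sdhb, Uqcrc2, Atp5b and other members beyond this were named after their values were seen. Alternatives were normexp background correction, quantile and array median scaling, the series table, other filters on dim probes, every probe on its own, slide or replicate number as a block, a Hox covariate, fits on the contrast's groups only, and left-out arrays. Leaving out the 3 arrays with high Hox genes, and recounting the gene lists without these and without the acinar arrays, were added after seeing the data.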

Additional observations from a re-analysis of the deposited data

Results flagged for a closer look

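In 116 sets of 4 or 5 arrays of a group, 23 held 1 array whose gap to the nearest other array was large against the whole range of the group. Chance gives about 1 in 20 such sets where they are independent. These sets are medians and single members on the same arrays, so the 23 cannot be set against that rate. Of the 23, 11 were WT day 7 replicate 3 and 10 were Card9-/- day 12 replicate 1.

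WT day 7 replicate 3 was low. Its Ndufa10 level was 3.41 (other arrays 3.80 to 3.93), Ndufa8 4.12 (4.43 to 4.52), Ndufab1 5.98 (6.29 to 6.39), Sdha 4.85 (5.20 to 5.31), Sdhb 6.40 (6.90 to 7.00), Sdhd 6.13 (6.53 to 6.64) and Uqcrc1 4.31 (4.77 to 4.92). Its median relative to WT day 0 was -0.44 over all members (others -0.05 to 0.06), -0.41 over complex I, -0.50 over complex II and -0.50 over complex III.

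Card9-/- day 12 replicate 1 was high. Its Atp5h level was 7.83 (other arrays 7.55 to 7.61), Ndufa8 4.54 (4.20 to 4.29), Sdhc 5.13 (4.80 to 4.87) and Sdhd 6.91 (6.50 to 6.61). Its median was 0.21 over all members (others -0.23 to -0.14), 0.22 over complex I, 0.14 over complex II, 0.23 over complex III, 0.27 over complex IV and 0.07 over complex V. The remaining ones were Card9-/- day 7 replicate 3, with Cox7a1 at 5.26 (others 3.78 to 4.01), and Card9-/- day 7 replicate 4, with Ndufab1 at 6.02 (others 6.17 to 6.19).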

How the results depend on the processing

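Of 444 recomputed counts and medians over 20 results, 404 kept their value within the limits used and 40 moved. Of 932 recomputed values of named genes, 784 kept their state, called or not called, 144 lost a call, 4 gained one and 0 turned direction. The 784 include genes that were not called in the main fit, so this count does not measure how stable the calls were. The causes were not tested. For day 7 against day 0 on Card9-/- arrays, 36 members were called. The count was 64 with normexp background correction, 1 with array median scaling, 57 without the 4 arrays with high acinar genes, 9 with only those groups in the fit and 4 without the 3 arrays with high Hox genes, and leaving out 1 array gave 24 to 48. The median was -0.53 with array median scaling and -0.48 without the acinar arrays.

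For day 12 against day 0 on Card9-/- arrays, 13 members were called. The count was 22 with normexp, 37 with quantile scaling, 0 with array median scaling, 37 with the series table, 4 with no filter on dim probes, 20 with the filter at 13 arrays, 6 with the Hox mean as a covariate, 36 without the acinar arrays, 2 with only those groups and 0 without the Hox arrays, and leaving out 1 array gave 1 to 33. For day 12 against day 7 on Card9-/- arrays, the count of 0 was 2 with normexp, 1 with the series table, 1 with every probe on its own and 0 to 1 with 1 array left out, and the median was 0.26 with array median scaling. With that scaling the median was -0.38 for WT day 7 against day 0, -0.23 for WT day 12 against day 0 and 0.10 for Card9-/- against WT at day 0. The last was 0.22 with slide as a block, 0.25 with the Hox covariate and 0.22 without the Hox arrays. Leaving out 1 array gave 0 to 14 called members for Card9-/- against WT at day 7, and 0 to 7 for the difference between genotypes in the day 7 change.

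Replicate numbers were not treated as pairs. In no comparison were all same-number correlations above 0.1 (for day 7 against day 0 on Card9-/- arrays, -0.089 to 0.239). For day 12 against day 7 on WT arrays all 5 were above 0, from 0.052 to 0.682. Correlations between different numbers were not set beside them, so a pairing cannot be judged from these values. With the replicate block, 30 members were called at day 7 and 8 at day 12 against day 0 on Card9-/- arrays, and none in the other comparisons.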
